A study of Mus musculus with 15 samples.

Results

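Gene expression was compared between 3 parthenogenetic and 2 fertilised mouse embryonic stem cell lines, with the line as the replicate. The comparison used all 15 arrays of the series, 3 for each of the 5 lines, and each line entered as the mean of its 3 arrays. Genes on the 19 autosomes were described when all 3 parthenogenetic line means lay above, or all 3 lay below, both fertilised line means. This rule took 2359 of the 12347 autosomal genes tested. Of these, 1385 lay above in the parthenogenetic lines, which is 11.2% of the genes tested, and 974 lay below, which is 7.89%. With only 5 lines, genes can separate in this way without any effect of origin, so these counts are descriptions. Here a gene counts as tested when its value reached the median of all values, 3.864 on the log2 scale, on at least 3 arrays.

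Embryonic stem cells are pluripotent cells derived from the inner cell mass of the blastocyst. A parthenogenetic embryo develops from an oocyte that was activated without sperm, so both of its chromosome sets come from the mother. Imprinted genes are expressed from the maternal or from the paternal copy only, according to methylation marks laid down in the germ line. An embryo without paternal copies is therefore known to lack expression of paternally expressed genes where the imprints are kept, and mouse parthenogenetic embryos die before term.

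The parthenogenetic line OpB6D2 was derived from ovulated oocytes of B6D2F1 females, which come from C57BL6 mothers and DBA2 fathers. FpB6D2 and FpB6CBA were derived from oocytes grown in cultured preantral follicles of prepubertal B6D2F1 and B6CBAF1 females, the second being a cross of C57BL6 mothers with CBA/Ca fathers. The fertilised line NmB6D2 came from a natural mating of C57BL6 females with DBA2 males, and R1 was a purchased line from a cross of 129S1/SvImJ and 129X1/SvJ. Each line was a single derivation, and the labels do not say whether the 3 arrays of a line came from separate cultures. No treatment is named for any group. R1 had a strain background that none of the other lines shared, so its strain and its mode of origin cannot be told apart. The Y-linked translation factor gene Eif2s3y averaged 3.35, 2.78 and 2.73 in OpB6D2, FpB6D2 and FpB6CBA, all under the filter value, against 8.61 in NmB6D2 and 7.99 in R1. Of the other Y-linked genes tested, Uty also lay below (gap -0.80) and Sry did not separate. Sex and mode of origin therefore cannot be told apart either.

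RNA was measured on Affymetrix arrays, and all values are log2 expression values. Their median over the genes tested lay between 6.634 and 6.79 on the 15 arrays. Over the 12347 autosomal genes, Pearson correlations ran from 0.993 to 0.998 between arrays within a line and from 0.911 to 0.978 between lines. Genes are not independent replicates for these correlations. The line means did not sort by mode of origin. OpB6D2 and FpB6D2 correlated at 0.979, but the parthenogenetic FpB6CBA correlated at 0.976 with the fertilised NmB6D2, against 0.956 with OpB6D2 and 0.951 with FpB6D2. The lowest correlation was 0.919, between FpB6CBA and R1. The pluripotency factor genes Pou5f1 (11.38 to 12.02), Sox2 (10.96 to 11.26) and Nanog (9.81 to 11.39) were high in all 5 lines. Markers of other cell types were also measured. Of 7 feeder fibroblast markers, Lum lay under the filter value in all 5 lines, whereas Col1a2 had line means of 7.68 to 9.41. Of 6 trophectoderm markers, Cdx2 lay between 3.79 and 4.25, whereas Krt18 ran from 7.72 in OpB6D2 to 11.28 in NmB6D2.

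No gene passed the test over line means. With limma on the 5 line means, 0 of 12813 genes (0%) met both criteria, an adjusted p under 0.05 and a difference of at least 2-fold, and 606 genes (4.73%) had an unadjusted p under 0.05. The lowest adjusted p was 0.089, for Eif2s3y, and the lowest for an autosomal gene was 0.683. The median size of the difference was 0.20 over all autosomal genes, and the median standard error was 0.25, so the median difference was smaller than the median error. A fit over all 15 arrays with the line as a random block, in which arrays of a line correlated at 0.874, called 56 genes (0.437%). Of these, 47 were higher and 9 lower in the parthenogenetic lines. That fit takes its degrees of freedom from arrays, although the line is the replicate. Without NmB6D2, the fit on line means called 66 genes (0.519%), 8 higher and 58 lower. R1 was then the only fertilised line and was assumed to vary like the parthenogenetic lines. The values below are therefore descriptions of which line means separated, and separation was the rule that chose the genes.

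Most separations were small. The distance between the nearest parthenogenetic and the nearest fertilised line mean, called the gap from here on, had a median of 0.10 log2 units among the separated autosomal genes. It reached 0.5 for 90 genes above and 49 below, and 1 for 23 genes above (0.186%) and 6 below (0.0486%). All 9 parthenogenetic arrays lay above all 6 fertilised arrays for 505 autosomal genes (4.09%) and below them for 319 (2.58%). At the edge of the rule, Kmt5b lay above with a gap of 9.4e-05 and Yeats2 below with a gap of -2.9e-05. Around a gap of 1, Cndp2 (1.02) lay just inside and Cbln1 (0.98) just outside among the genes above, and Gbp2 (-1.09) lay inside and Taok1 (-0.91) outside among those below.

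**Figure D1:**
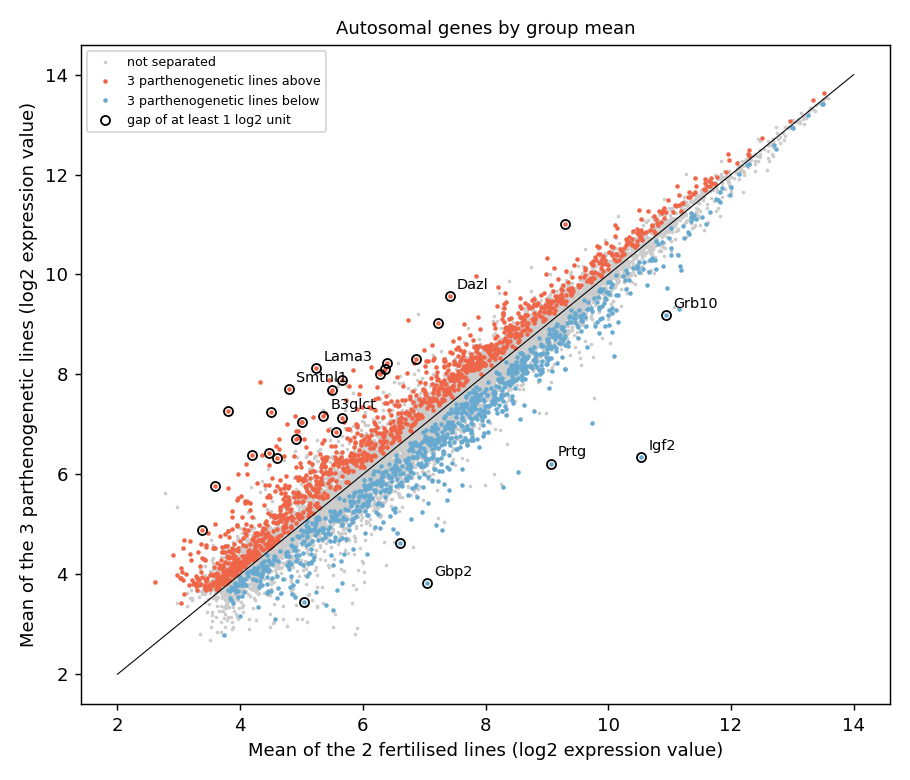
Each point is 1 autosomal gene, with its mean over the 2 fertilised lines on the x axis and its mean over the 3 parthenogenetic lines on the y axis, both as log2 expression values, and the line marks equal means. Red and blue points are the 1385 genes above and the 974 genes below, circles mark a gap of at least 1, and Igf2 and Gbp2 lie farthest under the line among the circled genes.

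The genes with the widest gaps above were not members of one family. B3glct, which encodes a glucosyltransferase that extends O-fucose on thrombospondin repeats, had the widest gap of a gene with a standard name, 1.56. Its values ran from 6.88 to 7.39 with a median of 7.16 on the 9 parthenogenetic arrays, against 5.05 to 5.68 with a median of 5.30 on the 6 fertilised arrays. The 3 parthenogenetic line means lay within 0.39 of each other, and the arrays of the groups did not overlap. The mean over the lines was 7.16 ± 0.21 (SD, n = 3) in the parthenogenetic group and 5.35 ± 0.02 (SD, n = 2) in the fertilised group, a 3.51-fold difference (1.81 ± 0.19 SE, adjusted p = 0.68 by limma). Smtnl1, a smoothelin-like regulator of muscle contraction, differed by 7.55-fold but was uneven among the parthenogenetic lines. It averaged 8.58 in OpB6D2, 7.97 in FpB6D2 and 6.59 in FpB6CBA, against 5.05 in NmB6D2 and 4.54 in R1.

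Nnmt, the nicotinamide N-methyltransferase gene, was even among the parthenogenetic lines (7.17, 7.39 and 7.20 in OpB6D2, FpB6D2 and FpB6CBA) and uneven between NmB6D2 (5.65) and R1 (3.34). Mapt, which encodes the microtubule protein tau, was the reverse, with 8.36, 8.50 and 7.85 in the same parthenogenetic lines against 6.41 in NmB6D2 and 6.39 in R1. The arrays carry 3 further probe sets for Mapt, and all 3 separated the lines the same way. Lama3, a laminin chain gene of epithelial basement membranes, averaged 8.62, 7.41 and 8.34 in OpB6D2, FpB6D2 and FpB6CBA, against 6.04 in NmB6D2 and 4.45 in R1. Npl, which encodes a sialic acid lyase, differed little within either group, from 7.82 to 8.50 across the parthenogenetic line means against 6.30 in NmB6D2 and 6.41 in R1. Fez1, an adaptor of axonal transport, had a gap of 1.41, as did Npl.

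The remaining genes of the 12 with the widest gaps above were Pzp (gap 1.42), a protease inhibitor of the alpha-2-macroglobulin family, and H2-Eb1 (1.35), a class II histocompatibility chain. Ttc39c (1.32) was separated by both of its other probe sets, although neither of these reached the filter value in any line mean. Hal (1.31) encodes histidine ammonia-lyase, and Ube2l6 (1.26) encodes an enzyme that conjugates the interferon-induced modifier ISG15. Ube2l6 averaged 4.70, 5.08 and 4.90 in OpB6D2, FpB6D2 and FpB6CBA, and its fertilised line means of 3.45 in NmB6D2 and 3.31 in R1 lay under the filter value, so it was at least 2.04-fold higher. For all 12 genes, no parthenogenetic array overlapped a fertilised array, but they were chosen for wide gaps on these same arrays. Among all autosomal genes, 4.09% lay above without overlap of arrays. The other 11 genes with a gap of at least 1 included Dazl and S100a4, members of the germ line and fibroblast lists. Another 2 were left out of the 12 for their clone-type or predicted-gene names, and 1 of them, Gm21283, had a gap of 1.93, wider than that of B3glct. The rest of the 11, Prmt8, Cxcl14, Kyat3, Lrrc2, Btbd11, Cpn1 and Cndp2, were named after their values were seen.

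**Figure D2:**
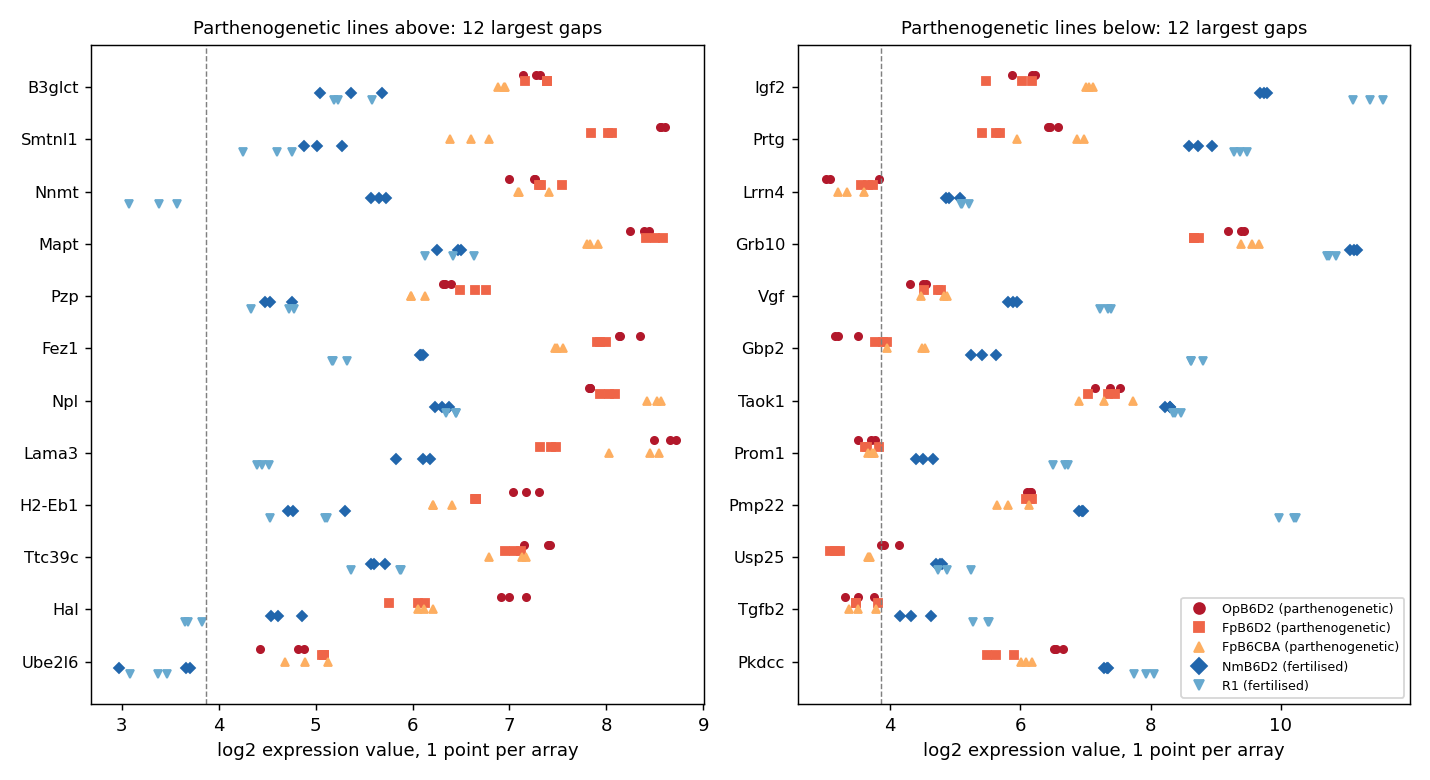
Each point is the log2 expression value of 1 array, for autosomal genes with standard symbols. The left panel holds the 12 widest gaps above among them, and the right panel the 12 widest gaps below. Parthenogenetic lines are in red and orange, fertilised lines in blue, and the dashed line marks the filter value of 3.864. In all 24 genes the parthenogenetic arrays stay clear of the fertilised arrays, but the genes were chosen for wide gaps on these same arrays. Among all autosomal genes, arrays did so for 4.09% above and 2.58% below.

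Igf2 had the widest gap of all autosomal genes, and it lay below. It encodes insulin-like growth factor 2, a fetal growth factor expressed from the paternal copy. On the 9 parthenogenetic arrays its value ran from 5.48 to 7.11 with a median of 6.18, against 9.68 to 11.56 with a median of 10.44 on the 6 fertilised arrays. The line means were 6.09 in OpB6D2, 5.89 in FpB6D2 and 7.06 in FpB6CBA, against 9.73 in NmB6D2 and 11.34 in R1. Igf2 was thus 18.3-fold lower in the parthenogenetic mean (log2 difference -4.19 ± 0.59 SE, adjusted p = 0.68 by limma), with a gap of -2.68. FpB6CBA was the highest of the parthenogenetic lines and still 2.68 log2 units under NmB6D2. These are bulk samples, in which fewer cells that express a gene and less RNA per cell cannot be told apart. The other Igf2 probe set also separated the lines, but it lay under the filter value in all 5.

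Prtg, which encodes protogenin, an immunoglobulin-family receptor of the early embryo, had the next widest gap (-2.16). It averaged 6.48, 5.57 and 6.59 in OpB6D2, FpB6D2 and FpB6CBA, against 8.75 in NmB6D2 and 9.38 in R1, which is 7.20-fold lower in the parthenogenetic mean. Both of its other probe sets separated the lines too, with gaps of -2.07 and -1.72. Grb10, the gene of an adaptor that dampens signalling by the insulin and insulin-like growth factor receptors, averaged 9.33, 8.69 and 9.53 in the parthenogenetic lines, against 11.11 in NmB6D2 and 10.76 in R1. It was 3.37-fold lower in the parthenogenetic mean (-1.75 ± 0.31 SE), and both of its other probe sets separated the lines the same way. Grb10 is expressed from the maternal copy in most tissues, and it lay on the same side as the paternally expressed Igf2.

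Several of the other genes below owed much of their difference to R1. Gbp2, an interferon-induced GTPase gene, averaged 3.28, 3.87 and 4.33 in OpB6D2, FpB6D2 and FpB6CBA, against 5.42 in NmB6D2 and 8.68 in R1. Pmp22, a myelin protein gene, averaged 6.14, 6.14 and 5.86 in the same lines, against 6.94 in NmB6D2 and 10.13 in R1. Prom1, the gene of the membrane protein CD133, lay between 3.66 and 3.71 in the parthenogenetic line means, under the filter value, against 4.52 in NmB6D2 and 6.64 in R1. Vgf, a neuropeptide precursor gene, averaged 4.45, 4.68 and 4.72 in these parthenogenetic lines, against 5.88 in NmB6D2 and 7.32 in R1. Taok1, a protein kinase gene, was even in both groups, at 7.35, 7.28 and 7.30 in OpB6D2, FpB6D2 and FpB6CBA against 8.27 in NmB6D2 and 8.39 in R1. Of the 6 other Taok1 probe sets, however, 4 differed in the same direction and 1 separated the lines. The last members of the 12 were Lrrn4 (gap -1.30), Usp25 (-0.79), Tgfb2 (-0.77) and Pkdcc (-0.75). Lrrn4, Usp25, Tgfb2, Gbp2 and Prom1 had parthenogenetic means under the filter value, so their folds are lower bounds, of which the largest was at least 9.11-fold for Gbp2.

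Imprinted genes separated at about the rate of other genes, and in both directions. Of 26 paternally expressed imprinted genes tested, 3 lay above (11.5%) and 1, Igf2, lay below (3.85%), against 11.2% and 7.89% of all autosomal genes. Their median difference was 0.02, the same as the median of 0.02 over all autosomal genes. Another 8 paternally expressed genes on the array, among them Magel2 and Rasgrf1, did not pass the filter. Of 33 maternally expressed genes tested, 2 lay above (6.06%) and 4 below (12.1%), with a median difference of -0.09. No member of either list passed the test.

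Dlk1, a Notch-like membrane ligand gene that is paternally expressed, lay above in the parthenogenetic lines. Its values on the 9 parthenogenetic arrays ran from 5.66 to 5.91 with a median of 5.82, against 4.31 to 5.19 with a median of 4.71 on the fertilised arrays. The 3 parthenogenetic line means were almost equal, at 5.80, 5.78 and 5.78, against 5.01 in NmB6D2 and 4.46 in R1, a 2.07-fold difference. The other Dlk1 probe set did not separate the lines the same way and did not reach the filter value in any line mean. Mcts2, a retrogene within the host gene H13, averaged 9.46, 9.49 and 9.19 in OpB6D2, FpB6D2 and FpB6CBA, against 8.72 in NmB6D2 and 8.67 in R1. Smoc1, a calcium-binding matrix protein gene, separated by only 0.01, and its arrays overlapped.

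Other paternally expressed genes varied widely from line to line without following the mode of origin. Peg3, a zinc finger gene, averaged 10.23 in OpB6D2, 9.56 in FpB6D2 and 5.19 in FpB6CBA, against 8.87 in NmB6D2 and 10.21 in R1. Mest, a hydrolase-like gene, averaged 9.75, 8.82 and 6.86 in the same order of parthenogenetic lines, against 8.01 in NmB6D2 and 9.34 in R1. FpB6CBA was the lowest of the 5 lines for 8 of the 26 genes, and R1 the highest for 10. Plagl1, a zinc finger regulator of growth, averaged 7.74, 8.01 and 7.49 in OpB6D2, FpB6D2 and FpB6CBA, between NmB6D2 at 5.53 and R1 at 10.04. Sfmbt2, a Polycomb-related gene, was lowest in FpB6D2 (5.05) and highest in NmB6D2 (8.83). Nnat, which encodes the proteolipid neuronatin, was also highest in NmB6D2 (8.71), but lowest in R1 (4.17).

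Ndn, the necdin gene, averaged 8.60, 8.76 and 6.83 in OpB6D2, FpB6D2 and FpB6CBA, against 6.41 in NmB6D2 and 8.77 in R1. Zdbf2 averaged 8.05, 6.86 and 5.51 in these parthenogenetic lines, against 6.83 in NmB6D2 and 8.75 in R1. Ddc, the DOPA decarboxylase gene, had the largest positive difference of the list (1.18 ± 0.64 SE), yet FpB6CBA at 6.87 lay under R1 at 7.28, so it did not separate. For Impact, Zfp64, Inpp5f, Mkrn3 and Bcl2l1, R1 was the highest of the 5 lines. Slc38a4 (8.62 to 10.85), Gab1 (9.91 to 10.87), Sgce (6.67 to 7.95), Peg10 (4.24 to 5.85), Snrpn (4.71 to 5.81), Kcnq1ot1 (4.48 to 5.92) and Jade1 (9.81 to 10.54) had overlapping groups, as given by their lowest and highest line means. Zim3 stayed between 4.05 and 4.31, and Peg12 lay under the filter value except in OpB6D2 (4.03) and R1 (4.22).

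Among maternally expressed genes, Phlda2, which limits growth of the placenta, lay below with large differences within both groups. It averaged 6.67, 6.40 and 7.99 in OpB6D2, FpB6D2 and FpB6CBA, against 8.12 in NmB6D2 and 11.34 in R1. Igf2r, which encodes the receptor that clears insulin-like growth factor 2, lay below by a gap of only -0.0062, with 7.38, 6.46 and 7.54 in the parthenogenetic lines against 7.55 in NmB6D2 and 7.95 in R1. Pon2, a paraoxonase gene, averaged 5.43, 5.12 and 5.57 in these lines, against 6.34 in NmB6D2 and 5.79 in R1. Above lay Tfpi2, a serine protease inhibitor gene (6.18, 5.02 and 4.97 in OpB6D2, FpB6D2 and FpB6CBA, against 4.48 in NmB6D2 and 4.29 in R1), and the decoy receptor gene Tnfrsf22 (5.52, 5.33 and 6.05, against 5.13 and 4.32). The 2 other Tnfrsf22 probe sets differed in the same direction but did not separate the lines.

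The noncoding RNA genes of the Dlk1 cluster, Meg3, Rian and Mirg, did not separate, with OpB6D2 high in each (8.35, 7.45 and 6.53). FpB6D2 had the lowest Meg3 (6.60) and Rian (5.89) of the 5 lines, and FpB6CBA the lowest Mirg (4.75). Cdkn1c, a cell cycle inhibitor gene, averaged 5.46, 5.72 and 7.81 in OpB6D2, FpB6D2 and FpB6CBA, against 7.21 in NmB6D2 and 6.01 in R1. Asb4 reached the filter value only in R1, at 8.20, with the other line means between 2.83 and 3.00. Gnas (10.71 to 11.21 in the parthenogenetic line means) was 11.16 in NmB6D2 and 11.95 in R1. Ascl2, Dcn and Trappc9 were highest in FpB6CBA, at 7.07, 5.97 and 7.41. The 18 other tested members that did not separate had differences between -0.44 for Blcap and 0.93 for Ampd3.

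**Figure D3:**
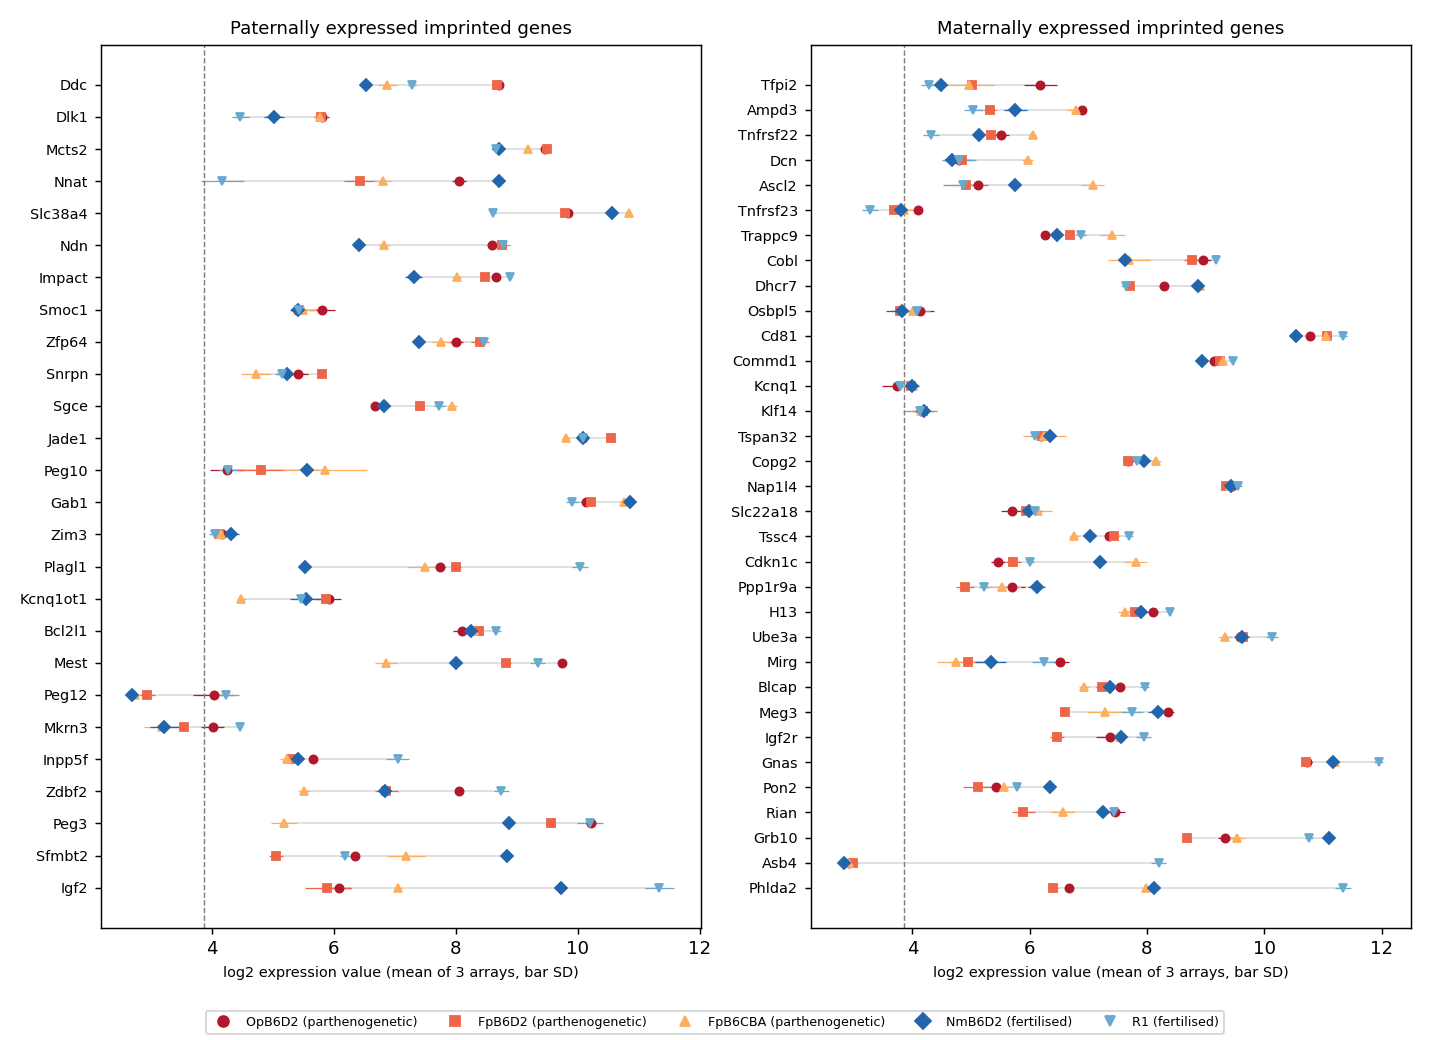
Log2 expression values of the 26 paternally expressed (left) and 33 maternally expressed (right) imprinted genes tested, ordered by the parthenogenetic minus fertilised difference with the largest at the top. Points are means of the 3 arrays of a line, bars the SD, and the dashed line the filter value. The red and blue points of Igf2 and Grb10 stand apart, whereas for Peg3 or Plagl1 the 2 colours mix.

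Of 18 genes of the insulin-like growth factor axis tested, 7 lay below (38.9%, against 7.89% of all autosomal genes) and 0 above, and the median difference was -0.40. No member passed the test, and Igf2, Grb10, Igf2r, Plagl1 and Cdkn1c also belong to the imprinted lists. The ligand Igf2 and the adaptor Grb10 are described above. Igf2bp1, which encodes an RNA-binding protein that binds Igf2 mRNA, averaged 9.79, 9.70 and 9.39 in OpB6D2, FpB6D2 and FpB6CBA, against 10.38 in NmB6D2 and 10.31 in R1. Its arrays did not overlap, and 2 of its 3 other probe sets separated the lines. Igf1r, the receptor through which the ligands signal, averaged 5.80, 5.56 and 6.42 in the parthenogenetic lines, against 6.64 in NmB6D2 and 6.77 in R1, and its arrays overlapped. Of the 4 other Igf1r probe sets, 3 differed in the same direction and 1 separated the lines the same way.

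The other members below, Igfbp3 and Irs2, fall outside the naming rule and complete the count. Igfbp3, a secreted binding protein gene, averaged 5.93, 5.98 and 5.32 in OpB6D2, FpB6D2 and FpB6CBA, against 6.17 in NmB6D2 and 10.39 in R1. Irs2, an adaptor gene downstream of the receptors, had overlapping arrays, with line means of 4.22, 4.97 and 4.62 against 5.11 in NmB6D2 and 5.14 in R1. The ligand gene Igf1 stayed near the filter value (3.63 to 4.35). Insr, Igfbp2, Igfbp4, Igfbp5, Grb14, Irs1, Igf2bp3 and Akt1 did not separate, and R1 alone was high for Irs1 (7.22) and Igfbp4 (10.15). The count below was 6 to 7 with an array left out and 7 to 13 with a line left out, the 13 without NmB6D2. Among all autosomal genes, 937 to 1006 lay below with an array left out. With a line left out, 1289 to 3358 did so, the 3358 without NmB6D2. The count of axis genes below was 4 with all arrays of one group beyond those of the other, against 2.58% of all autosomal genes. At a gap of at least 0.5 it was 3, against 49 of all 12347 autosomal genes.

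Of 25 autosomal germ line genes tested, 9 lay above (36%, against 11.2% of all autosomal genes), 0 lay below and 16 did not separate. The median difference was 0.44, with 20 of the 25 differences above 0. No member passed the test. The count above was 7 to 10 with an array left out and 10 to 17 with a line left out, the 17 without NmB6D2. Among all autosomal genes, 1341 to 1447 lay above with an array left out. With a line left out, 1723 to 4186 did so, the 4186 without NmB6D2. The germ line count was 3 with all arrays of one group beyond those of the other, against 4.09% of all autosomal genes. At a gap of at least 0.5 it was 1, against 90 of all 12347 autosomal genes. Dazl, an RNA-binding translation factor of germ cells, had the widest gap (1.10). Its values ran from 9.36 to 9.78 with a median of 9.59 on the 9 parthenogenetic arrays, against 6.45 to 8.39 with a median of 7.43 on the 6 fertilised arrays. The parthenogenetic lines were even (9.70 in OpB6D2, 9.54 in FpB6D2 and 9.44 in FpB6CBA), whereas NmB6D2 at 6.50 and R1 at 8.34 were far apart. Dazl was 4.41-fold higher in the parthenogenetic mean (2.14 ± 0.55 SE, adjusted p = 0.92 by limma).

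The meiotic genes of the list were less even. Hormad1, a component of the meiotic chromosome axis, averaged 8.10, 7.94 and 8.17 in OpB6D2, FpB6D2 and FpB6CBA, against 7.54 in NmB6D2 and 5.14 in R1. Brdt, the testis bromodomain gene, averaged 4.19, 4.58 and 5.50 in these lines, against 3.73 in NmB6D2 and 3.63 in R1, both under the filter value. Tex101, a germ cell surface protein gene, was near the filter value throughout (3.58 to 4.14). The remaining 5 genes above, named here after their values were seen, had gaps of 0.19 for Sycp1, 0.15 for Stk31, 0.09 for Slc25a31, 0.05 for Sohlh2 and 0.03 for Mael, and all had overlapping arrays. Sycp1, a synaptonemal complex gene, showed the spread among lines most clearly, with 7.24, 6.06 and 7.72 in OpB6D2, FpB6D2 and FpB6CBA against 5.87 in NmB6D2 and 3.67 in R1. R1 was the lowest of the 5 lines for 14 of the 25 genes, and FpB6CBA the highest for 13.

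Members that did not separate included Ddx4, the germ cell helicase gene, with 6.02, 5.87 and 7.49 in OpB6D2, FpB6D2 and FpB6CBA against 7.43 in NmB6D2 and 5.61 in R1. Tex19.1 was higher in OpB6D2 (10.67) and FpB6D2 (10.81) than in NmB6D2 (9.52) and R1 (9.50), but in FpB6CBA it was the lowest of the 5 lines. Kit, the stem cell factor receptor gene, averaged 7.94, 7.67 and 7.03 in the parthenogenetic lines, between NmB6D2 at 5.59 and R1 at 8.13. The oocyte genes Zp3, Figla, Zar1 and Gdf9 had line means between 3.31 and 5.14 and did not separate. Gtsf1, a piRNA pathway gene outside the list that was picked after its values were seen, averaged 7.51, 7.31 and 8.49 in OpB6D2, FpB6D2 and FpB6CBA, against 5.55 in NmB6D2 and 6.35 in R1.

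**Figure D4:**
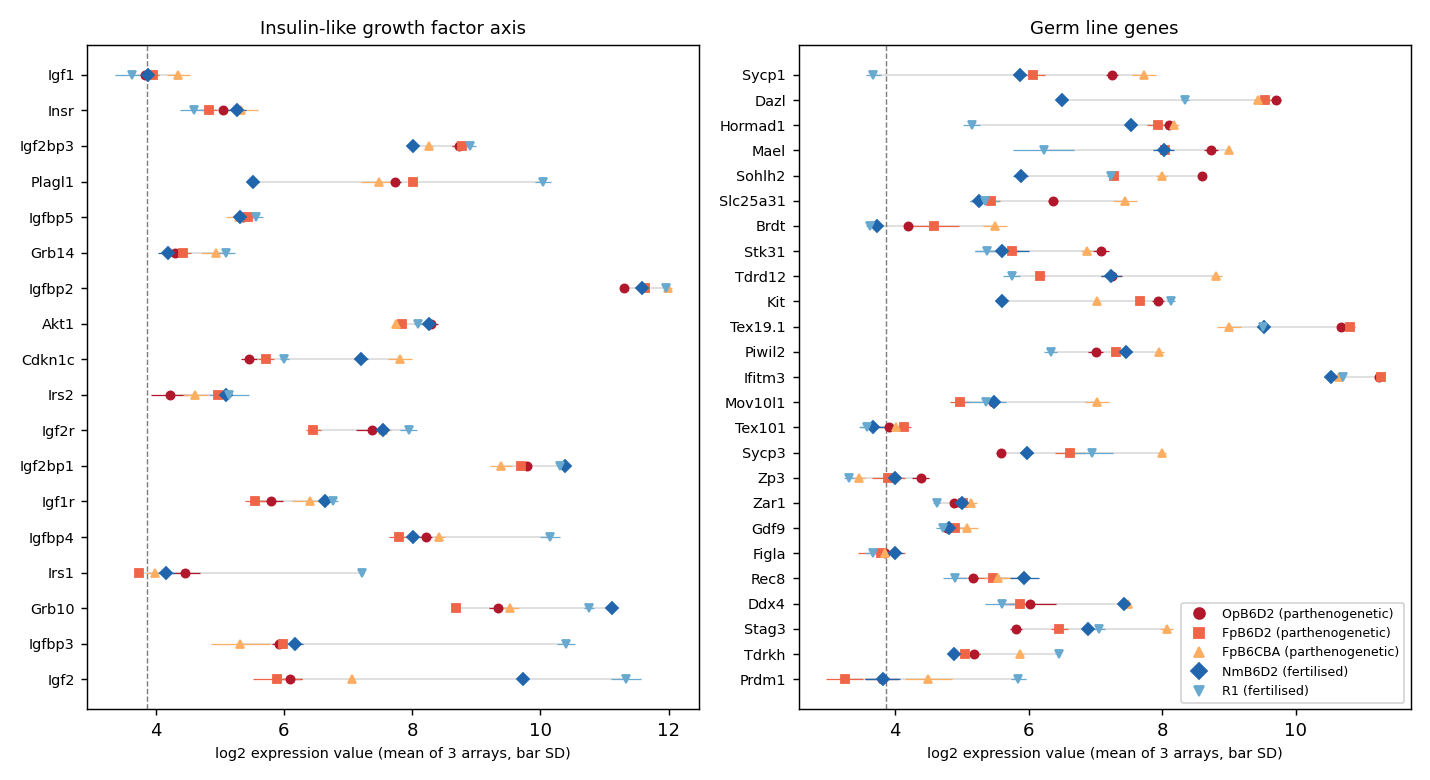
Log2 expression values of the 18 insulin-like growth factor axis genes (left) and the 25 autosomal germ line genes (right) tested, ordered by the parthenogenetic minus fertilised difference. Points are means of the 3 arrays of a line, bars the SD, and the dashed line the filter value. Fertilised lines lie to the right for Igf2 and Grb10 at the bottom of the left panel, and parthenogenetic lines to the right for Dazl and Sycp1 at the top of the right panel.

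The promoters of germ line genes are shown because many of them hold the E-box CACGTG, which MGA binds together with MAX. In mouse embryonic stem cells these proteins are known as subunits of a Polycomb complex that represses germ line genes. Each window spans 250 bases before and 50 bases after the start of the gene, from RefSeq on GRCm38.p6, 5′ to 3′ on the strand of the gene, with CACGTG in capitals. The windows are chr3:95559427-95559726 (plus strand) for Hormad1, chr5:107330944-107331243 (plus strand) for Brdt, chr3:102936051-102936350 (minus strand) for Sycp1 and chr17:50293571-50293870 (minus strand) for Dazl. Hormad1 holds the word at 57 and 20 bases before its start, Brdt at 78 and Sycp1 at 94, and the Dazl window does not hold these letters.
Hormad1: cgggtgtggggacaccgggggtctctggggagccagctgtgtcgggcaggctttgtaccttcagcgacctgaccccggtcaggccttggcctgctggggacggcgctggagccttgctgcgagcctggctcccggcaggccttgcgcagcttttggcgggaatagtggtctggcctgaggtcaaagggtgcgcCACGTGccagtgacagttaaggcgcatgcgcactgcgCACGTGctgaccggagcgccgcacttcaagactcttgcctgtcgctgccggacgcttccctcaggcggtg
Brdt: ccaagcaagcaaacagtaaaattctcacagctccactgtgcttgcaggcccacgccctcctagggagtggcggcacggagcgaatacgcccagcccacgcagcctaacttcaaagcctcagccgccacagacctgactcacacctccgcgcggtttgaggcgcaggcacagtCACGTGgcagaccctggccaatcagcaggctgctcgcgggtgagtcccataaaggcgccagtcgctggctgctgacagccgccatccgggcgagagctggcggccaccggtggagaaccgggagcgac
Sycp1: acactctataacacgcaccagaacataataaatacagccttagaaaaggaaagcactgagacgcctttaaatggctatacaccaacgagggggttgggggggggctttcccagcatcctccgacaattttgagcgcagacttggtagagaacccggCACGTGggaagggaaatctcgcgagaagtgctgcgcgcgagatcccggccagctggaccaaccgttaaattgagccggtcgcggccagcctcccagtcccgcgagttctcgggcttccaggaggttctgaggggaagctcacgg
Dazl: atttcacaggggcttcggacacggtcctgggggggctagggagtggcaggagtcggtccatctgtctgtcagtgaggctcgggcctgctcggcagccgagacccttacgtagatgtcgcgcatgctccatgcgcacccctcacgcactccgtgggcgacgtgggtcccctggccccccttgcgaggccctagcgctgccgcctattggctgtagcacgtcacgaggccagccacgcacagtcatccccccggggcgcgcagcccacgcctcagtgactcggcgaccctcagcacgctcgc

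CACGTG reads the same on both strands, and no other motif was searched. A gene counted if any of its promoters held the word, and Hormad1 had 2 promoters, of which the first is shown. The word occurred in 7.15% of all 32851 promoters of the table and in 8.09% of its 27025 genes. It occurred in 11.6% of the 9937 autosomal tested genes that had a promoter there. Among the germ line list it occurred in 11 of 23 genes with a promoter (47.8%), in 6 of the 9 above (66.7%) and in 5 of the 14 not separated (35.7%). The 6 genes were Hormad1, Brdt, Sycp1, Slc25a31, Stk31 and Mael. Over all autosomal genes the word did not go with the direction, since it occurred in 11.4% of genes above, 10.8% of genes below and 11.8% of genes not separated. A match is a description of the sequence, and binding was not measured. Whether the word or the Polycomb complex had a part in the separation was not tested. Mga, which encodes a subunit of that Polycomb complex and was picked after its values were seen, lay below, with 7.66, 7.56 and 7.53 in OpB6D2, FpB6D2 and FpB6CBA against 8.27 in NmB6D2 and 8.29 in R1. Its 9 parthenogenetic arrays ran from 7.12 to 7.85 with a median of 7.63, against 8.06 to 8.41 with a median of 8.36 on the fertilised arrays. Of the 14 tested genes of that complex, Mga was the only one that separated, which is 7.14% below against 7.89% of all autosomal genes. That list was made after the values were seen. Of the 4 other Mga probe sets, 3 differed in the same direction and 2 separated the lines.

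Subunits of oxidative phosphorylation, the mitochondrial chain that makes ATP, showed many but small separations. Of 23 autosomal members tested, 10 lay above (43.5%, against 11.2% of all autosomal genes) and 0 below, with a median difference of 0.19. The count above was 9 to 10 with an array left out and 10 to 14 with a line left out. Over all autosomal genes the corresponding counts were 1341 to 1447 and 1723 to 4186. The subunit count was 6 when ambiguous probe sets were dropped. That setting can also remove members, so the 6 is not comparable with the 11.2%. With all arrays of one group beyond those of the other the subunit count was 4, against 4.09% of all autosomal genes. At a gap of at least 0.5 it was 0, against 90 of all 12347 autosomal genes. Every one of the 10 gaps was 0.174 or less. Ndufa9, a complex I subunit, had the widest, with 10.72, 11.07 and 10.86 in OpB6D2, FpB6D2 and FpB6CBA against 10.51 in NmB6D2 and 10.55 in R1. Ndufv2, also of complex I, averaged 11.47, 11.66 and 11.79 in these lines, against 11.35 in NmB6D2 and 11.29 in R1. Cox6c (gap 0.12), of complex IV, and Ndufv1 (0.11), of complex I, followed. The subunits Sdha, Sdhb and Sdhc of complex II did not separate. The poly-A control probe sets, which read RNA added to the sample and not made by the cells, also lay above, at 7.51, 7.75 and 8.30 in OpB6D2, FpB6D2 and FpB6CBA against 7.37 in NmB6D2 and 7.45 in R1. Their part in the result was not tested.

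Naive pluripotency genes separated in both directions. Of 31 tested, 5 lay above (16.1%) and 2 below (6.45%), against 11.2% and 7.89% of all autosomal genes. Their median difference was 0.08. Pecam1, an adhesion molecule gene, averaged 7.28, 7.12 and 6.76 in OpB6D2, FpB6D2 and FpB6CBA, against 5.57 in NmB6D2 and 5.83 in R1, without overlap of arrays. Fbxo15 (gap 0.46), a target of Pou5f1, and Gdf3 (0.35), a TGF-beta family ligand gene, also lay above. Lin28a, whose product blocks maturation of let-7 microRNAs, lay below, at 9.55, 7.08 and 8.47 in the parthenogenetic lines against 9.87 in NmB6D2 and 10.30 in R1. The genes of imprint protection and DNA methylation were close to the background, with 2 of 25 above (8%) and 2 below (8%). Daxx, a histone chaperone gene, lay above with a gap of 0.35, Tet3 lay above by 0.07, and Setdb1 (-0.08) and Smchd1 (-0.06) lay below by less than 0.1.

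Markers of fibroblasts, which serve as feeder cells in such cultures, had 4 of 27 members above (14.8%) and 0 below. The shares over all autosomal genes were 11.2% and 7.89%, and the median difference of the 27 members was -0.06. S100a4, a calcium-binding protein gene, averaged 8.03, 8.52 and 8.38 in OpB6D2, FpB6D2 and FpB6CBA, against 6.87 in NmB6D2 and 6.85 in R1. Thy1, a surface marker gene, averaged 7.39, 7.46 and 7.20 in these lines, against 6.24 in NmB6D2 and 5.95 in R1. Loxl1 (gap 0.49) and Cxcl12 (0.04) completed the count. The 2 other Cxcl12 probe sets differed in the opposite direction. The collagen genes did not follow these 4 members. Col1a1 averaged 7.86, 7.05 and 7.39 in the parthenogenetic lines, against 7.13 in NmB6D2 and 9.17 in R1, which was the highest of the 5 lines for 17 of the 27 members. The mean over the 7 defining feeder markers was 6.37, 5.86 and 6.37 in OpB6D2, FpB6D2 and FpB6CBA, against 5.80 in NmB6D2 and 6.80 in R1, and Lum lay under the filter value everywhere.

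Markers of other lineages separated in small numbers, beside 11.2% above and 7.89% below among all autosomal genes. Of 21 trophectoderm genes, 1 lay above (Krt42, 4.76%) and 2 below (Eomes and Krt8, 9.52%), with a median difference of -0.26. Krt8 averaged 7.73, 9.22 and 10.95 in OpB6D2, FpB6D2 and FpB6CBA, against 11.24 in NmB6D2 and 11.05 in R1, so FpB6CBA lay close to the fertilised lines. Elf5, a trophoblast transcription factor gene, was above the filter value only in NmB6D2 (6.95). Of 22 primitive endoderm genes, 2 lay above and 1 below, and FpB6CBA was the highest of the 5 lines for 16 of them. Sox7 lay above with 4.93, 6.58 and 5.18 in the parthenogenetic lines against 4.45 in NmB6D2 and 3.59 in R1. Of 16 primed epiblast genes, 0 lay above and 2 below, Lef1 (gap -0.30) and Pou3f1 (-0.10). Mesendoderm genes had a median difference of -1.52 over 12 members, with R1 the highest line for 9, but only Hhex lay above and Eomes below. Of 11 neuroectoderm genes, Pou3f2 lay above (9.09%), and Sox11 and Nes lay below (18.2%).

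Metabolic and stress lists gave a few members each, beside 11.2% above and 7.89% below among all autosomal genes. Of 18 autosomal glycolysis genes, 2 lay above (Pfkm and Pfkp, 11.1%) and 2 below (Slc2a3 and Eno3, 11.1%), with a median difference of -0.30. Among 19 hypoxia-inducible genes the median difference was -0.38, and Stc2 (gap -0.57) and Narf (-0.31) lay below (10.5%). FpB6D2 was the lowest of the 5 lines for 12 members of each of these lists. Gtse1 was the only one of 21 p53 targets to separate (above, 4.76%, gap 0.18), and Kif11 the only one of 21 mitotic genes (below, 4.76%, gap -0.21). Of 11 genes of class I histocompatibility and antigen processing, 0 lay above and 2 below (Psmb10 and Erap1, 18.2%). The median difference of these 11 genes was -0.44, and R1 was the highest line for 8. Interferon-stimulated genes had 3 of 18 above (16.7%) and 2 below (11.1%). Oas1a, an RNA sensor of that list, averaged 6.80, 6.97 and 7.27 in OpB6D2, FpB6D2 and FpB6CBA, against 5.86 in NmB6D2 and 5.90 in R1, whereas Gbp2 and Irf1 lay below. Of 11 autosomal genes of Polycomb repressive complex 2, Phf19 lay above (9.09%), with a gap of 0.0011.

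**Figure D5:**
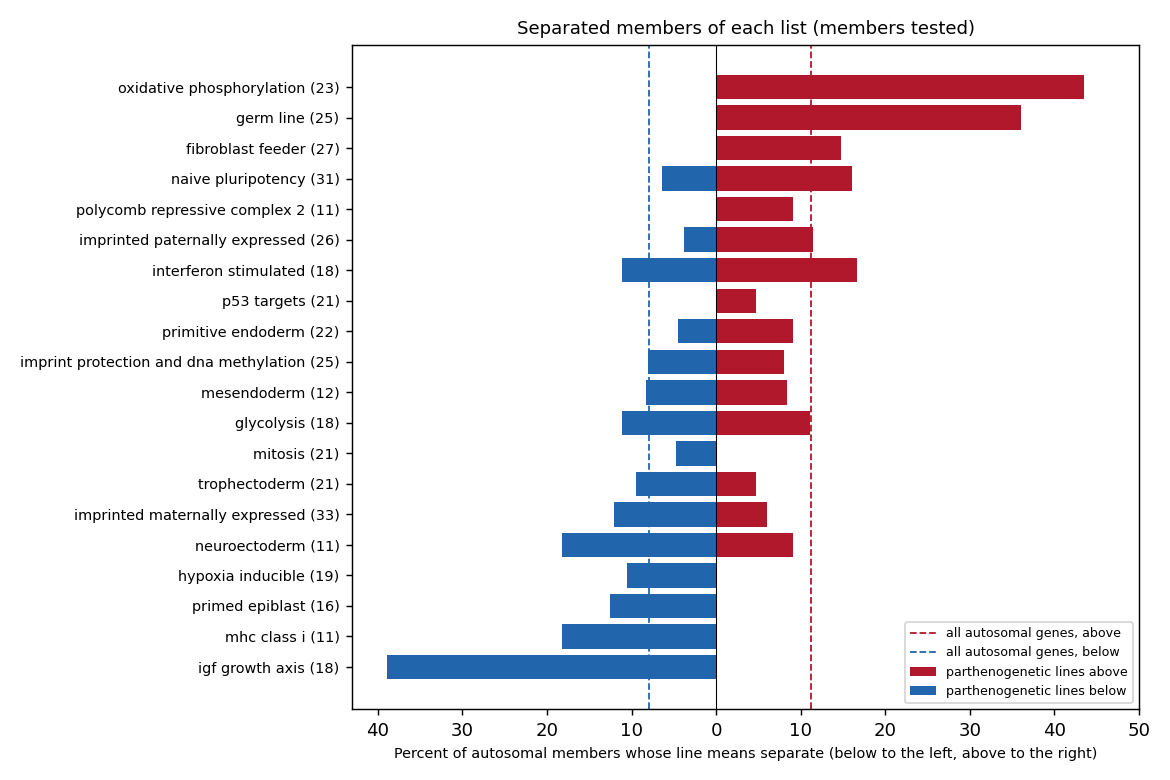
Bars give the percent of autosomal members of each list whose 3 parthenogenetic line means lay above (red, to the right) or below (blue, to the left) both fertilised line means, with the number tested in brackets. Dashed lines mark the 11.2% above and 7.89% below among all autosomal genes. Oxidative phosphorylation (43.5%) and germ line (36%) extend farthest to the right, and the insulin-like growth factor axis (38.9%) farthest to the left.

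Separated genes were spread over all 19 autosomes. The share above ran from 7.6% on chromosome 14 to 14.4% on chromosome 6, and the share below from 5.36% on chromosome 17 to 12.6% on chromosome 14. Neighbouring genes went the same way somewhat more often than the background share, since the next tested gene also lay above for 14.7% of genes above, and also lay below for 10.1% of genes below. The longest runs held 5 consecutive tested genes. One of them, on chromosome 9 and singled out after its values were seen, ran above through Gsta4, Dppa5a, Ooep, Ddx43 and Cgas. Within it, Ooep, a maternal-effect gene of the oocyte, averaged 10.10, 10.64 and 10.26 in OpB6D2, FpB6D2 and FpB6CBA, against 9.21 in NmB6D2 and 8.78 in R1. Ooep was the only one of 5 tested genes of the subcortical maternal complex, a list made after the values were seen, to separate. The median difference of these 5 genes was 0.67, and R1 was the lowest of the 5 lines for each. Dppa5a, a naive pluripotency gene, separated in the same run by 0.04.

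The X chromosome, which the rule leaves out, had 103 of 414 genes above (24.9%) and 13 below (3.14%), with a median difference of 0.27 against 0.02 for autosomal genes. Against NmB6D2 the X-linked median was 0.50 in OpB6D2 and 0.44 in FpB6D2, but -0.01 in FpB6CBA and 0.04 in R1. Xist, whose RNA covers a silenced X chromosome, averaged 4.92, 4.59 and 4.54 in OpB6D2, FpB6D2 and FpB6CBA, against 4.57 in NmB6D2 and 4.76 in R1.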

How the data were processed

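Log2 expression values were used as deposited. They were made with RMA and the affy package per the submitters' processing notes, from Affymetrix mouse expression arrays, and the versions are not given in the sources used here. The log base was taken from the range of the values, 1.99 to 13.96. Of 45101 probe sets, 34945 carried 1 gene symbol, 932 carried several and 9160 carried none, and 64 were controls. The probe set with the highest mean stood for each of 18193 genes. Chromosomes and promoters came from a RefSeq table of GRCm38.p6. A gene was tested if 3 or more arrays reached the overall median value of 3.864, which removed 5380 genes and left 12813. A fold against a group mean under that value is a lower bound set against it.

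The 3 arrays of each line were averaged, and the 5 line means entered limma 3.58.1 in R 4.3.3 with Benjamini-Hochberg adjustment over all genes tested. Figures were drawn with matplotlib 3.10.9. The code was tested on simulated data. With 3 lines against 2, p-values measure the spread between these lines. Named were the 12 widest gaps in each direction among autosomal genes with standard symbols, members of both imprinted lists, up to 4 separated members of each other list, and checks of sex and pluripotency. The comparison and the 23 gene lists were chosen with earlier results of these data known, and 2 of the lists were made after the values were seen. Alternatives changed the probe set rule, the filter, the scaling, the threshold, the model and the arrays or lines used. Replicate numbers were read from the titles of 13 arrays. Arrays of different lines with the same number did not deviate together (correlations of deviations from the line means -0.181 to 0.127, of which 1 of 12 pairs exceeded 0.1), so the numbers were not taken as pairs.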

Additional observations from a re-analysis of the deposited data

How the results depend on the processing

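The count of genes called was 0 on line means and 0 when any array was left out. It was 1 at an adjusted p under 0.1, 56 with the line as a random block over 15 arrays, and 0 to 66 when a line was left out, with the 66 obtained without NmB6D2. All 56 genes of the random-block fit separated the lines. They included Igf2 (adjusted p = 0.000983 by limma on 15 arrays), Grb10 (0.00497) and Dazl (0.00902). These values take their degrees of freedom from arrays, although the line is the replicate. By limma on the line means, the adjusted p was 0.68 for Igf2 and 0.92 for Grb10 and Dazl. Against 1385 autosomal genes above, there were 2113 without a filter on low values, 505 with all 9 parthenogenetic arrays beyond all 6 fertilised arrays, and 90 at a gap of at least 0.5. Leaving out an array or a line gave 1341 to 4186. Against 974 genes below, there were 319 by arrays, 49 at a gap of at least 0.5, and 937 to 3358 with an array or line left out. At a gap of at least 1, the 23 genes above became 15 with the mean of all probe sets of a gene and 22 to 231 with an array or line left out, and the 6 genes below became 5 to 375. The highest of each of these counts (4186, 3358, 231 and 375) was obtained without NmB6D2. Fewer lines make separation easier by construction. A fit with the replicate number as a block called 0 genes and gave 1371 genes above, 957 below, and 23 and 6 at a gap of at least 1. The median difference of all genes was 0.0287 in the main run, 0.0187 with median centring and 0.0428 with quantile normalisation. With the mean of all probe sets of a gene it was 0.0133. The numbers of lines, 3 and 2, and of arrays limit the precision, and genes near 3.864 are close to background.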
